A study of Mus musculus with 11 samples.

Results

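The oligoadenylate synthetases are a family of interferon-induced genes, and their transcripts were followed here in BV2 cells, an immortalised line of mouse microglia of the C57BL/6 strain, exposed to the amino-terminal part of apolipoprotein E (ApoE). The family was defined by symbol as 8 genes, Oas1a, Oas1b, Oas1c, Oas1g, Oas2, Oas3, Oasl1 and Oasl2. Of these, 7 had a row among the 36529 genes of the count files, and Oas1b was not analysed here. Cells were given 25 µg/mL of His-tagged nApoE4(1–151), residues 1 to 151 of ApoE4, for 5 h (ApoE4, 3 samples), and untreated cells served as their controls (ControlA, 3 samples). In a separate set, nApoE3(1–151) was given at the same dose and time (ApoE3, 2 samples), again with untreated controls of its own (ControlB, 3 samples). The fragments differ by a single amino acid, a cysteine in nApoE3 where nApoE4 has an arginine. The labels give the controls a PBS vehicle, whereas the study's methods give them conditioned media.

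Oligoadenylate synthetases bind double-stranded RNA, most often that of a virus, and then join ATP into short chains of adenylate with unusual linkages between the sugars, known as 2-5A. These chains act as a signal of infection within the cell. Transcription of the family is driven by type I interferon through the interferon-stimulated response element (ISRE), and microglia are among the brain cells in which this response is well known. In the mouse, Oas1a, Oas1g, Oas2 and Oas3 encode active synthetases, Oasl2 is a synthetase with an added ubiquitin-like tail, and Oasl1 is an OAS-like protein known for repressing translation of IRF7. Oas1b is the flavivirus resistance gene, which is truncated in most laboratory strains and is annotated as a transcribed pseudogene in RefSeq.

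All 8 genes lie on chromosome 5 of GRCm38.p6 in RefSeq. Oasl2 (114896926 to 114912245) and Oasl1 (114923143 to 114937911) form a pair that spans 40986 bases. The remaining members lie 5.792 Mb away in a cluster of 10 genes over 191316 bases, in the order Oas2 (120730333 to 120749886), Oas3 (120753098 to 120777684), Oas1c (120800194 to 120812540), Oas1b (120812635 to 120824163), Oas1g (120876142 to 120887613) and Oas1a (120896256 to 120907544). Oas1d, Oas1e, Oas1f and Oas1h share this cluster and were not counted as members.

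Promoters are shown because the members differed widely in the size of their response. RefSeq windows of 250 bases before to 50 bases after the start were at hand for 6 of the 8 members, all but Oas2 and Oas1b. The start is the one of the promoter table, which for most members lies inside the gene span given above, by 8 bases in Oasl2, 19 in Oas1a, 25 in Oas3, 26 in Oas1c and 97 in Oasl1, and at its edge in Oas1g. Below are the 140 bases before this start on the strand of the gene, from GRCm38.p6, with matches to the ISRE core in capitals. The core was searched as GAAANNGAAA, or TTTCNNTTTC on the reverse strand, with overlapping matches allowed.
Oas1a, chr5:120907526-120907665, minus strand: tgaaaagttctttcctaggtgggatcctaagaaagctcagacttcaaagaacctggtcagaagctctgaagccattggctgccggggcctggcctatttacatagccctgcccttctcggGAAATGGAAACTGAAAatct
Oas1g, chr5:120887614-120887753, minus strand: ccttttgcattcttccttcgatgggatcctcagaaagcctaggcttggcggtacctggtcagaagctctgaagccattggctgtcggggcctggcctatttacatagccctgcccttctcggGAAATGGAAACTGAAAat
Oas1c, chr5:120812515-120812654, minus strand: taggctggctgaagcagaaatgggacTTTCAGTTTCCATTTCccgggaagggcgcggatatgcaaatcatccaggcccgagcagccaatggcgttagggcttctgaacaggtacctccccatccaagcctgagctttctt
Oas3, chr5:120777660-120777799, minus strand: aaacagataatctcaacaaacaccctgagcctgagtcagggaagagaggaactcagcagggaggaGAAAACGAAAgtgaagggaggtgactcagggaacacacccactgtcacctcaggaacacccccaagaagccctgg
Oasl1, chr5:114923100-114923239, plus strand: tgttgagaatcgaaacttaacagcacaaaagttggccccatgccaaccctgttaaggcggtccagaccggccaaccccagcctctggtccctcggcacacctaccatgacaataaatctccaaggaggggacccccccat
Oasl2, chr5:114896794-114896933, plus strand: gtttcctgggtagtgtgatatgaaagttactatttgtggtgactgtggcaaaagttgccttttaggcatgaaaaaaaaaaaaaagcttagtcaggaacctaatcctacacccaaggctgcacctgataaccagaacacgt

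The ISRE core was present in the window of 4 of the 6 members, against 1131 of 32851 promoter windows of the same length (3.44%). In Oas1a and Oas1g, a pair of overlapping matches lay directly before the start, from -20 to -5 in Oas1a and from -18 to -3 in Oas1g, and the genes shared an identical run of 56 bases there. In Oas1c the same arrangement was found on the other strand and farther from the start, from -114 to -99. These matches lie between the edge of the Oas1c span (120812540) and that of its neighbour Oas1b (120812635). The Oas1c window itself runs to 120812654, inside the Oas1b span. Whether the matches act on either gene was not tested. Oas3 held a single match from -75 to -66. The letters of the core were not in the windows of Oasl1 and Oasl2, and the Oasl1 window reaches only 153 bases beyond the edge of the gene span. A GAS element, searched as TTCNNNGAA (its own reverse complement), matched in Oas1a alone, from -98 to -90, and in 2726 of all windows (8.30%). These matches describe the letters only.

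The samples held 39732710 to 44162511 counts on genes in ControlA, 40041282 to 43669539 in ApoE4, 55809688 to 69768666 in ControlB and 61191937 and 63563784 in ApoE3. A level of 3 counts, taken as the floor, was worth 0.0425 to 0.0756 CPM, the counts of a gene scaled to the effective size of its library, and covers counting error only. Replicates correlated at r = 0.991 to 0.998 across genes on log CPM, and none were duplicates. ControlA replicate 2 differed more from its partners (chi-square per degree of freedom of 25.8 and 47.9) than any other pair did (3.15 to 12.05), and without it the same number of members, 6, passed the test with nApoE4. Of 10 microglial markers, Csf1r, Cd68, Adgre1, Spi1, Itgam and Ptprc were abundant, Tmem119 held 52 to 646 counts, Cx3cr1 3 to 43 and Aif1 0 to 10, and P2ry12 was at 0 in every sample. The summed level of the microglial list was 2724 to 2920 CPM in ControlA, 3068 to 3206 in ApoE4, 2279 to 2367 in ControlB and 2906 to 2920 in ApoE3. Lists for oligodendrocytes, neurons, astrocytes, endothelial cells, fibroblasts and lymphocytes summed to at most 25.4 CPM in any sample. The astrocyte list stood higher with treatment (4.36 to 7.02 CPM, against 1.05 to 1.39 in the controls), mostly through the glutamate transporter gene Slc1a2, while Gfap and Aqp4 held at most 4 counts and Aldh1l1 held 8 to 19 in ControlA and 0 to 10 in the other samples. The neuron list was higher in ApoE4 (5.26 to 6.27 CPM) than in ControlA (1.93 to 2.49), mostly through the tubulin gene Tubb3, and stood at 1.08 to 1.46 CPM in the nApoE3 set. The part of these markers in the results was not tested.

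**Figure D1:**
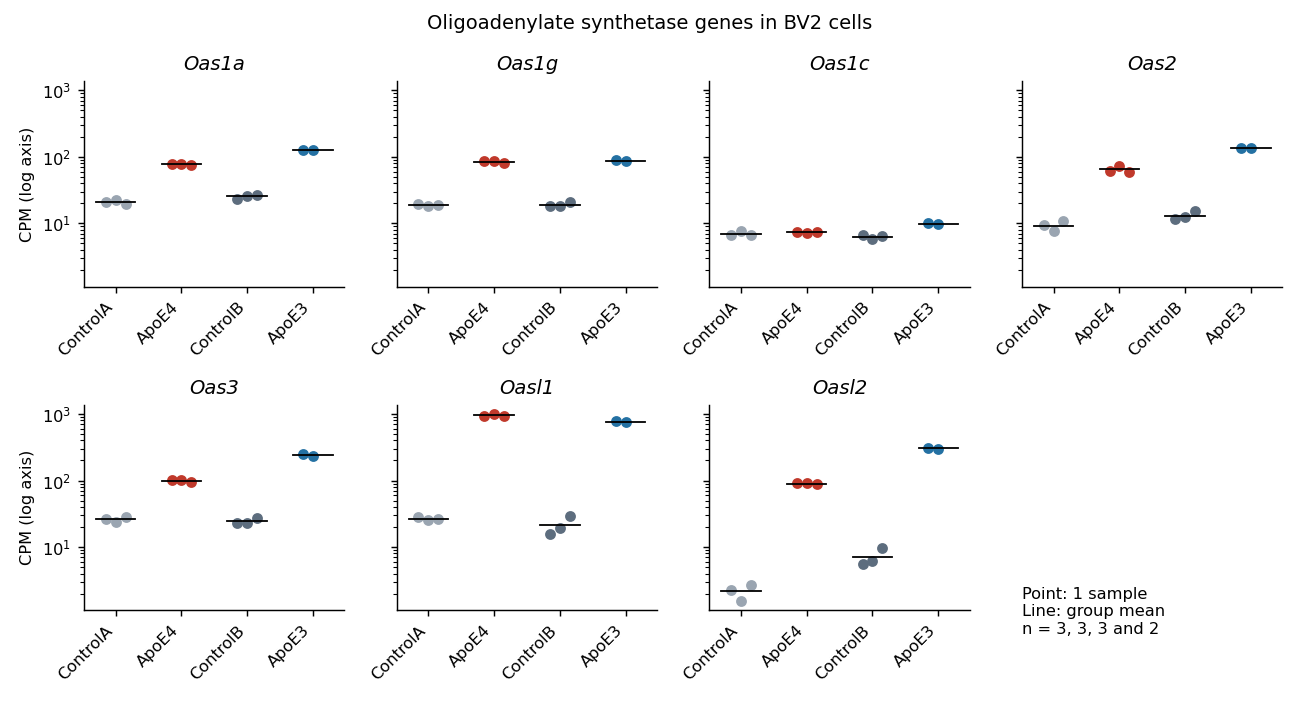
CPM (log axis) of each measured family member in each sample (points) with the group mean (line), for ControlA, ApoE4 and ControlB (n = 3 each) and ApoE3 (n = 2). Treated samples lie above their own controls for every member except Oas1c with nApoE4, and Oasl1 reaches the highest levels.

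Treatment with nApoE4 raised the transcripts of nearly the whole family. Of 7 members tested, 6 rose and none fell at an adjusted p-value under 0.05 (edgeR's quasi-likelihood test with Benjamini-Hochberg adjustment), while 28.6% of the 14240 genes tested were higher. The same 6 also exceeded a 2-fold change, which 10.2% of all genes did. The members had a median log2 fold change of 2.15 and all genes tested a median of 0.0013. The increases were smallest for the synthetases Oas1a, Oas3 and Oas1g, larger for Oas2, and far larger for the OAS-like genes. The labels do not say that replicates came from separate cultures, and the study's methods call the measurements independent without saying how they were separated. The p-values therefore measure the spread between these samples, which may in part be technical. In bulk RNA, a change in the share of cells that express a gene cannot be told apart from a change in the RNA of each cell.

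Among the synthetases, Oas1a stood at 20.8, 22.1 and 19.2 CPM in the ControlA samples and at 78.7, 79.3 and 76.4 CPM in the ApoE4 samples (887 to 993 and 3033 to 3376 counts). Its mean rose from 20.7 ± 1.47 to 78.1 ± 1.53 CPM (SD, n = 3 each), 3.78-fold, with a log2 fold change of 1.92 (SE 0.066, adjusted p = 1.18e-08). All 3 treated samples lay within a narrow band well above the controls. Oas1g, its close paralog, was measured at 19.6, 18.1 and 19.0 CPM in ControlA and at 85.2, 85.1 and 81.1 CPM with nApoE4. That was a 4.45-fold increase (log2 fold change 2.15, SE 0.060, adjusted p = 3.19e-09), and the groups did not overlap.

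Oas2, a membrane-associated synthetase, had 9.32, 7.76 and 10.7 CPM in the controls and 62.1, 71.9 and 60.0 CPM in the treated samples. It rose 6.99-fold (log2 fold change 2.81, SE 0.12, adjusted p = 5.03e-08), from 9.27 ± 1.49 to 64.6 ± 6.38 CPM (SD, n = 3 each). The spread between treated replicates was wider for Oas2 than for the other members relative to the mean, yet every treated sample exceeded every control by several-fold. Oas3, which encodes the longest of the synthetases and is known for sensing long double-stranded RNA, went from 26.3, 24.0 and 28.1 CPM to 101, 103 and 95.1 CPM. Its increase was 3.82-fold (log2 fold change 1.93, SE 0.072, adjusted p = 2.02e-08).

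Oas1c did not pass the test with nApoE4. The ControlA samples held 6.67, 7.63 and 6.60 CPM (284 to 342 counts), and the ApoE4 samples held 7.53, 7.15 and 7.38 CPM (293 to 323 counts), so that the groups overlapped. The log2 fold change was 0.084 (95% interval -0.13 to 0.29, adjusted p = 0.473), an interval that reaches neither the response of any other member nor a 2-fold change.

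The OAS-like genes showed the largest responses of the family. Oasl1 was measured at 28.1, 25.2 and 26.5 CPM in ControlA and at 945, 997 and 938 CPM in ApoE4, or 1128 to 1236 counts against 37243 to 41439. It rose 36.2-fold (log2 fold change 5.18, SE 0.081, adjusted p = 1.97e-10), which ranked it at 80 among all genes tested by log2 fold change. Oasl2 was the least abundant member before treatment, at 2.23, 1.54 and 2.68 CPM (69 to 125 counts), and reached 90.2, 92.1 and 88.1 CPM with the fragment. Its increase of 42.0-fold (log2 fold change 5.39, SE 0.14, adjusted p = 2.00e-09) had rank 71. The relative spread of Oasl2 in ControlA, an SD of 0.574 CPM on a mean of 2.15, was the widest of the members there.

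With nApoE3, all 7 members tested were higher than in ControlB, where 33.1% of the 14817 genes tested were higher. An increase above 2-fold was found for 6 members, against 9.60% of all genes, and again Oas1c was the exception. The median log2 fold change of the members was 3.30, compared with -0.0026 for all genes tested. ApoE3 had 2 samples, so its SD rests on a single difference.

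Oas1a had 23.6, 25.8 and 26.7 CPM in the ControlB samples and 127 CPM in both ApoE3 samples, a 4.99-fold increase (log2 fold change 2.32, SE 0.042, adjusted p = 2.22e-13). Oas1g went from 18.4, 18.1 and 20.9 CPM to 88.7 and 86.8 CPM, 4.57-fold (log2 fold change 2.19, SE 0.049, adjusted p = 1.37e-12). Neither gene had a treated sample near its controls. Oas1c was measured at 6.61, 5.86 and 6.44 CPM without and at 10.1 and 9.74 CPM with the fragment. Here its groups were separate and it rose 1.56-fold (log2 fold change 0.65, SE 0.074, adjusted p = 7.10e-06).

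Oas2 stood at 11.5, 12.3 and 15.4 CPM in ControlB and at 135 and 134 CPM in ApoE3. The gene rose 10.3-fold (log2 fold change 3.37, SE 0.071, adjusted p = 9.05e-13). Oas3 rose 9.82-fold, from 22.6, 22.9 and 27.4 CPM to 247 and 231 CPM (log2 fold change 3.30, SE 0.058, adjusted p = 1.84e-13). Both genes thus changed by nearly the same factor with nApoE3, whereas their factors with nApoE4 were 6.99 and 3.82.

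Oasl1 was the member with the widest spread in absolute terms among untreated samples of this set, at 15.9, 19.3 and 28.8 CPM. The ApoE3 samples held 782 and 749 CPM, a 36.2-fold increase (log2 fold change 5.18, SE 0.13, adjusted p = 4.80e-12). For Oasl2, values of 5.59, 6.07 and 9.69 CPM in ControlB and of 313 and 301 CPM in ApoE3 gave a 43.7-fold increase (log2 fold change 5.45, SE 0.11, adjusted p = 4.16e-13). In both OAS-like genes ControlB replicate 3 was the highest control.

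**Figure D2:**
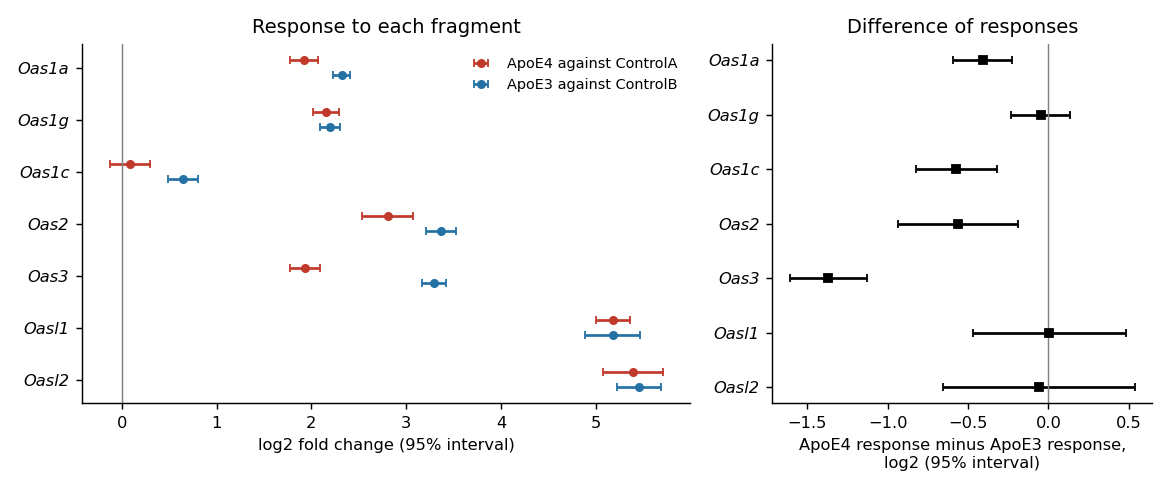
Left, log2 fold change of each member with its 95% interval for nApoE4 against ControlA (red) and nApoE3 against ControlB (blue), and right, the nApoE4 response minus the nApoE3 response with its 95% interval. The difference lies below 0 for Oas1a, Oas1c, Oas2 and Oas3, by most for Oas3 at -1.37, and its interval includes 0 for Oas1g, Oasl1 and Oasl2.

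A direct test of the interaction, fitted to all 11 samples, asked whether the fragments gave different responses. No member responded more to nApoE4 and 4 of the 7 responded more to nApoE3 at an adjusted p-value under 0.05, where 14.4% and 13.9% of the 15287 genes tested differed in these directions. The median difference of the members, the log2 response to nApoE4 minus that to nApoE3, was -0.41, and that of all genes was 0.0025. Fragment and experiment cannot be told apart in this comparison, since each fragment was tested in its own set of samples with its own controls.

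Oas3 differed most, with a response 2.58-fold smaller for nApoE4 (difference of log2 fold changes -1.37, SE 0.11, adjusted p = 1.70e-06). For Oas1c the difference was -0.57 (SE 0.12, adjusted p = 0.00256), and for Oas1a it was -0.41 (SE 0.086, adjusted p = 0.00308). These 3 calls were kept whichever sample was left out. Oas2 had a difference of -0.56 (SE 0.17, adjusted p = 0.0265), but this call was lost when any 1 of 8 samples was left out, namely replicates 1 and 3 of ControlA, 1 and 3 of ApoE4, 1 and 2 of ControlB or either ApoE3 sample (adjusted p = 0.0552 to 0.0775).

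The other 3 members did not pass. The difference was -0.049 for Oas1g (95% interval -0.23 to 0.14, adjusted p = 0.716), 0.0046 for Oasl1 (-0.47 to 0.48, adjusted p = 0.993) and -0.059 for Oasl2 (-0.66 to 0.54, adjusted p = 0.902). The interval of Oas1g is narrow, while those of the OAS-like genes leave room for a difference of about the size seen for Oas1a.

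The untreated samples of the 2 sets were compared because each response is measured from its own baseline. In this comparison 3 members were higher in ControlB and none lower, with 34.4% of 14249 genes higher and 34.9% lower. Oasl2 was 3.26-fold higher in ControlB (7.12 ± 2.24 against 2.15 ± 0.574 CPM, SD, n = 3 each), a log2 difference of 1.71 (SE 0.26, adjusted p = 5.64e-04), and no ControlB sample fell among the ControlA samples. Oas1a was higher by 0.27 (SE 0.072, adjusted p = 0.00916) and Oas2 by 0.48 (SE 0.14, adjusted p = 0.0179) on the log2 scale.

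The remaining members, Oas1c, Oas1g, Oas3 and Oasl1, had log2 differences of -0.16, 0.0018, -0.12 and -0.34 between the control groups (adjusted p = 0.147 to 0.984). ControlB replicate 3, the highest ControlB sample for every member but Oas1c in CPM, decided several of these calls. Without it the Oas2 difference fell to 0.35 (adjusted p = 0.0557), while Oas3 (-0.21, adjusted p = 0.0489) and Oasl1 (-0.60, adjusted p = 0.00186) became lower in ControlB. The Oasl2 difference lay between 1.43 and 1.90 whichever control sample was left out.

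Summed over the 7 measured genes, the family amounted to 106 to 113 CPM in ControlA and 1346 to 1435 CPM in ApoE4, and to 104 to 135 CPM in ControlB and 1639 to 1703 CPM in ApoE3. The make-up of this total shifted with treatment. Oasl1 contributed 23.5 to 24.9% of the family's counts in ControlA and 69.0 to 69.7% in ApoE4, but 15.3 to 21.3% in ControlB and 45.7 to 45.95% in ApoE3.

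**Figure D3:**
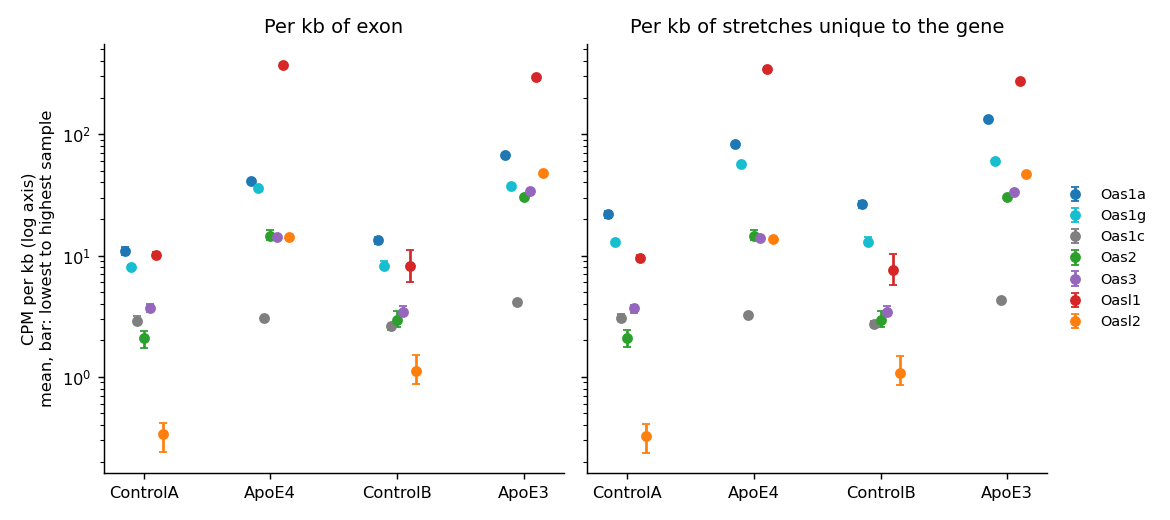
CPM per kb on a log axis for each member in each group (point, mean; bar, lowest to highest sample), over all exon bases on the left and over stretches unique to the gene on the right. Oasl1 stands alone at the top of both treated groups, and Oasl2 moves from the bottom in the controls to among the other synthetases with treatment.

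Levels of different genes were compared per kb of exon, with exon lengths from GENCODE M21, as the annotation used for counting was not given in the sources used here. In ControlA, Oas1a (10.997 CPM per kb) and Oasl1 (10.2) overlapped at the top, followed by Oas1g (8.08), Oas3 (3.70), Oas1c (2.90), Oas2 (2.08) and Oasl2 (0.337), whose samples did not overlap with those of their neighbours. With nApoE4, Oasl1 reached 368.1 CPM per kb, well above Oas1a (41.5) and Oas1g (35.8), then Oas2 (14.5), Oasl2 (14.1) and Oas3 (14.1), which overlapped, and last Oas1c (3.06). Oasl2 thus moved from far below Oas1c to several-fold above it.

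In ControlB the order was Oas1a (13.5 CPM per kb), Oas1g (8.19) and Oasl1 (8.19), then Oas3 (3.44), Oas2 (2.94) and Oas1c (2.62), then Oasl2 (1.12). Here Oas1g overlapped with Oasl1, Oas3 with Oas2, and Oas2 with Oas1c. With nApoE3 no neighbours overlapped, and Oasl1 (294 CPM per kb) was followed by Oas1a (67.3), Oasl2 (48.2), Oas1g (37.5), Oas3 (33.8), Oas2 (30.2) and Oas1c (4.12).

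Oas1a and Oas1g are similar enough to share reads. Of all stretches of 75 bases, the read length, 47.6% of those in Oas1a exons also occurred in Oas1g. Likewise, 36.9% of those in Oas1g exons occurred in Oas1a, and full-length reads from shared stretches cannot be assigned to either gene. The counting set aside reads with several places in the genome, 11.7 to 13.2% of those tallied, so levels per kb of exon may be too low for both genes. Over unique stretches alone, Oas1a rose to 21.8 CPM per kb and Oas1g to 12.8 in ControlA, both above Oasl1 (9.54), and Oas1g (59.5) passed Oasl2 (46.8) in ApoE3. Oas1c shared 6.75% of its stretches, mostly with Gm43069, and Oas2, Oas3, Oasl1 and Oasl2 shared none.

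All 7 measured Oas1 genes were also summed into a single feature, which does not depend on how counted reads were divided among them. The sum also lacks the reads set aside for having several places. It rose by 1.87 on the log2 scale with nApoE4 (SE 0.057, adjusted p = 5.56e-09) and by 2.14 with nApoE3 (SE 0.039, adjusted p = 2.59e-13), and the responses differed by -0.28 (SE 0.074, adjusted p = 0.0132). The strand setting of the counting was not given in the sources used here, and Oas1c exons overlapped antisense exons of Gm43069 over 227 bases (9.44%) and Oasl1 exons those of Gm13822 over 38 bases (1.46%). Gm13822, named after its values were seen, had 105 to 119 counts in ControlA, 779 to 830 in ApoE4, 267 to 340 in ControlB and 1504 and 1571 in ApoE3, far below those of Oasl1 in treated cells.

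**Figure D4:**
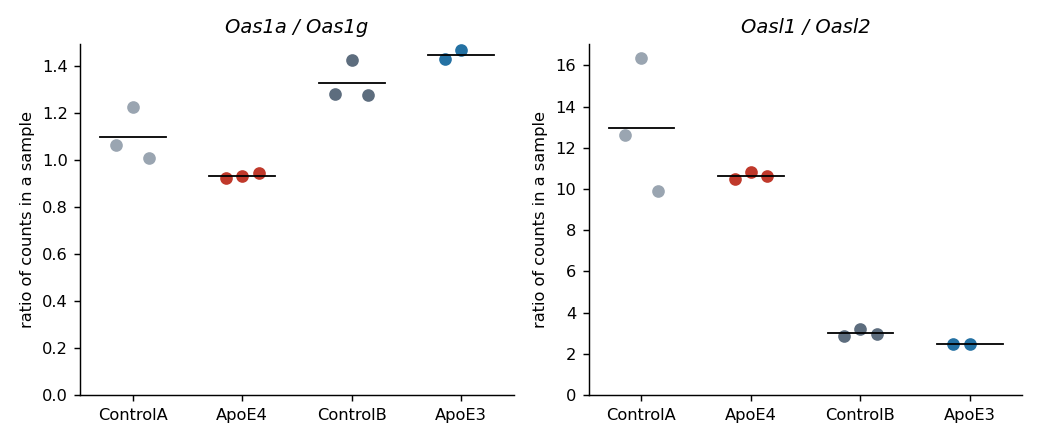
Ratio of counts within each sample (points, with the group mean as a line) for Oas1a to Oas1g on the left and for Oasl1 to Oasl2 on the right. The Oas1a to Oas1g ratio is lowest in ApoE4 and highest in ApoE3, and the Oasl1 to Oasl2 ratio separates the sets more than it separates treated from untreated samples.

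Ratios within a sample are free of library scaling. The count of Oas1a over that of Oas1g was 1.06, 1.22 and 1.01 in ControlA, 0.924, 0.932 and 0.943 in ApoE4, 1.28, 1.42 and 1.28 in ControlB and 1.43 and 1.46 in ApoE3. Oas1g therefore gained on Oas1a with nApoE4, where the groups did not overlap, and with nApoE3 both treated samples lay above the controls, though barely above the highest of them. For Oasl1 over Oasl2 the ratio was 12.6, 16.3 and 9.89 in ControlA and 10.5, 10.8 and 10.6 in ApoE4, and it was 2.85, 3.18 and 2.97 in ControlB and 2.50 and 2.48 in ApoE3. Treated and untreated samples overlapped in the first set, while in the second both treated samples lay below every control. The sets did not overlap with each other.

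The genes that act around the synthetases were taken from a list of 25, of which 24 were tested. With nApoE4, 17 rose and 4 fell (28.6% of all genes were higher and 28.6% lower), and with nApoE3, 19 rose and 5 fell (33.1% higher and 34.6% lower). Their median log2 fold changes were 1.05 and 1.67. Among interferon and its signalling chain upstream of the family, 9 of 11 genes rose with nApoE4 and 10 of 11 with nApoE3, where the remaining gene fell. Of 10 other nucleic acid sensors, 7 rose and 2 fell with nApoE4, and 8 rose and 2 fell with nApoE3.

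**Figure D5:**
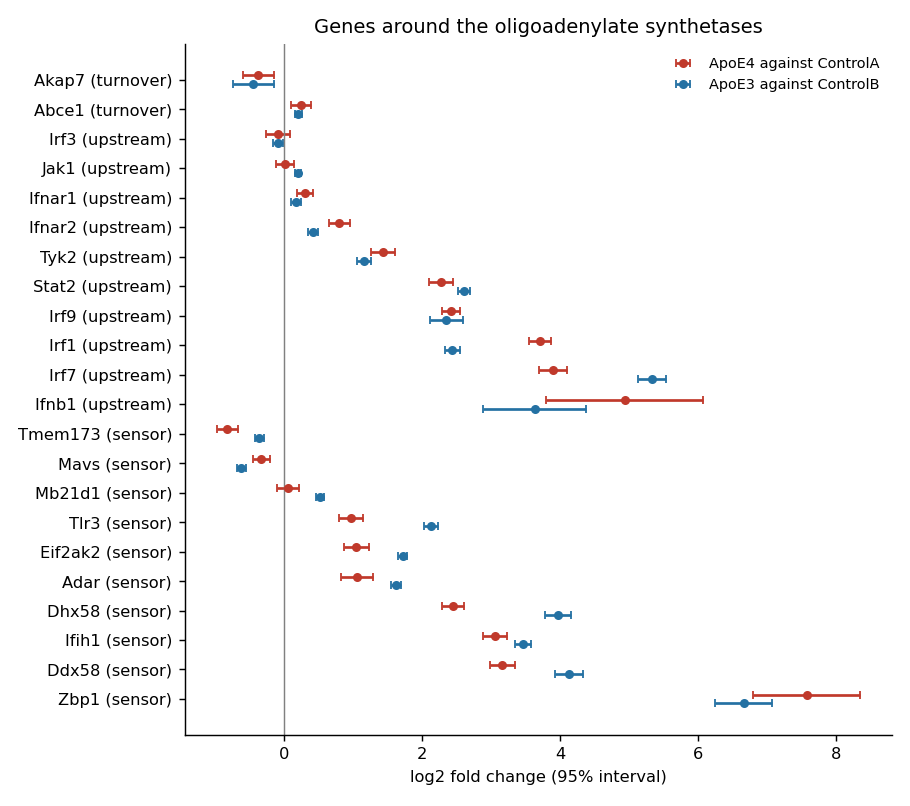
Log2 fold change with its 95% interval for tested genes of the list around the family, grouped by role, for nApoE4 against ControlA (red) and nApoE3 against ControlB (blue). Zbp1 and Irf7 lie far to the right, and the points of Ifnb1 and Zbp1 for nApoE4 rest on controls at or under the floor.

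Genes that act on 2-5A or have been linked to the pathway changed little. Akap7, which encodes a protein able to degrade 2-5A, had a log2 fold change of -0.37 with nApoE4 (adjusted p = 0.00998) and of -0.45 with nApoE3 (adjusted p = 0.0112), and the second call was lost without ApoE3 replicate 1 (-0.25, adjusted p = 0.151). Abce1, a ribosome recycling factor, rose by 0.25 (adjusted p = 0.00895) and 0.21 (adjusted p = 3.75e-06). Pde12, another 2-5A phosphodiesterase, held 2 to 9 counts in any sample and was not tested.

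Upstream of the family, Ifnb1, the gene of interferon beta, had 0, 2 and 2 counts in ControlA and 43, 30 and 50 in ApoE4. All of these controls were at or under the floor of 3 counts. Set against that floor, the observed mean of Ifnb1 in ApoE4 was at least 14.8-fold higher, a bound that leaves out sampling error. The edgeR test of treated against control samples gave an adjusted p of 2.43e-05. In the other set it had 3, 7 and 9 counts in ControlB and 75 and 72 in ApoE3 (log2 fold change 3.63, SE 0.34, adjusted p = 1.11e-06). Zbp1, a sensor of Z-form nucleic acid, had the highest value of the list with both fragments. Its counts were 1, 2 and 0 in ControlA, so that its observed mean in ApoE4 was at least 71.2-fold higher by the same kind of bound. The edgeR test gave an adjusted p of 8.00e-08 for nApoE4. With nApoE3 the log2 fold change of Zbp1 was 6.66 (SE 0.19, adjusted p = 1.24e-11). With both genes set at these bounds the median of the list with nApoE4 was again 1.05. It could not move, since both bounds (3.89 for Ifnb1 and 6.15 for Zbp1 on the log2 scale) lie above it.

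To place the family among other transcripts, the mean profile of its 7 measured members was correlated with 9344 genes over the 11 samples. The highest Pearson coefficients were those of Ifih1 (0.999), Trim12a (0.999), Ddx58 (0.998), Irak3 (0.998) and Dusp16 (0.997). Ifih1 and Ddx58 encode the RNA sensors MDA5 and RIG-I and also belong to the list above. For single members the closest gene was Tor3a for Oas1a (0.998), Gbp2 for Oas1g (0.998), Vimp for Oas1c (0.951), Mdm2 for Oas2 (0.996), Gm8995 for Oas3 (0.998), Nlrp3 for Oasl1 (0.998) and Cmpk2 for Oasl2 (0.999). Within the family, coefficients ran from 0.927 to 0.996, except for those of Oas1c, at 0.679 to 0.858. The samples fall into treated and untreated ones, and genes that follow this division correlate for that alone, so these values describe likeness only. How much of each coefficient the division sets was not tested.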

How the data were processed

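Total RNA was sequenced as single-end reads of 75 bases. Per the labels and the study's methods, the authors trimmed reads with Trim Galore 0.5.0, mapped them to GRCm38.p6 with HISAT2 2.1.0 and deposited raw counts per gene from HTSeq 0.11.0, without normalization. Tallies of reads on no gene were kept out of library sizes. Of all tallied reads, 76.0 to 77.7% were on genes. Annotation release, strand setting and overlap mode were not given in the sources used here.

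Counts were analysed in R 4.3.3 with edgeR 4.0.16 (filterByExpr, TMM, quasi-likelihood F test, Benjamini-Hochberg adjustment over all genes tested, threshold 0.05). The study's methods used DESeq2, which was run here (1.42.0) as an alternative. Treated samples of a fragment were set against the controls of the same set, and the difference of responses was fitted over 11 samples with 4 group means. CPM are TMM-scaled over 11 samples. SE is the log2 fold change over the root of F. The scripts were tested on simulated data.

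Groups came from the labels. Members and lists were chosen with earlier results of these data known. All members were named, with Pde12, Akap7, Abce1, Ifnb1 and the largest change of the pathway list. Some results of that list are not reported here. Genes most like the family were sought where any group averaged 10 CPM or more. Log CPM used a prior count of 2.

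Alternatives were DESeq2, its size factors, a filter of 1 count, a filter of 10 counts in every sample, thinned counts, a fold change above 2, all samples in 1 fit, Oas1 genes summed, a replicate block and leaving out each sample. Sequences were read from RefSeq tables on GRCm38.p6.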

Additional observations from a re-analysis of the deposited data

Results flagged for a closer look

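In 4 members the response differed between the fragments by the test of the difference itself (edgeR's quasi-likelihood test, adjusted over all genes tested). Of the 15287 genes tested, 14.4% had a larger log2 response to nApoE4 and 13.9% a larger one to nApoE3. The log2 response to nApoE4 minus that to nApoE3 was -1.37 for Oas3, -0.57 for Oas1c, -0.56 for Oas2 and -0.41 for Oas1a. The smaller response was that to nApoE4 in all 4 members. The Oas2 call, however, was lost in 8 of 18 alternatives. In Oas1a, Oas2 and Oas3 every treated sample was nonetheless higher than every control of its set with both fragments, whereas Oas1c samples overlapped with their controls in the nApoE4 set alone. Fragment and experiment cannot be told apart here.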

How the results depend on the processing

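The number of members called stayed at 6 of 7 with nApoE4 and at 7 with nApoE3 whichever sample was left out, and ranged from 3 to 4 between the control groups and for the difference of responses. With a fold change above 2 also required, it was 1 between the control groups and 1 for the difference of responses, and the pathway list with nApoE3 went from 24 to 15. That rule took all genes called from 8145 to 2515 with nApoE4, from 10034 to 2397 with nApoE3, from 9879 to 2551 between controls and from 4331 to 906 for the difference. Replicate numbers did not pair the samples (same-number correlations -0.41 to -0.093 for nApoE4, 0.0059 and 0.013 for nApoE3, and with nApoE4 no sample matched its own number best). A replicate block left 6, 7 and 4 members called for nApoE4, nApoE3 and their difference, and 2307 genes for the difference. Of 501 alternative values for 38 single-gene results, 475 kept direction and call, 11 lost the call, 2 gained it and 13 changed sign.

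The sign changes were all in values near 0. The Oas1g control difference, 0.0018, became -0.0049 with at least 10 counts per sample, -0.011 with thinned counts, and -0.060 to 0.053 with a sample left out. The difference of responses for Oasl1, 0.0046, became -0.0023 with DESeq2 size factors, -0.27 with the block and -0.27 to 0.18 with a sample left out, and that for Oasl2 ran from -0.34 to 0.14. The cause was not tested. Leaving out an ApoE3 sample assumes that the other varies like the remaining groups. Oas2 (8 fits without 1 sample), Abce1 (block, adjusted p = 0.0532) and Akap7 lost calls. Depth limits Ifnb1, Zbp1 and Pde12, which had few or no counts in the controls.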

Other observations

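The 4 other Oas1 genes were outside the family as defined. Oas1h had 54, 59 and 76 counts in ControlA, 260, 339 and 233 in ApoE4, 85, 93 and 108 in ControlB and 583 and 602 in ApoE3. It rose with both fragments, by 2.25 on the log2 scale with nApoE4 (adjusted p = 3.01e-06) and by 2.75 with nApoE3 (adjusted p = 3.38e-09, both by edgeR). Its neighbour Oas1g had log2 fold changes of 2.15 and 2.19. Oas1f held 5 to 11 counts in ControlA and ApoE4 and 28 to 47 in ControlB and ApoE3. Oas1d held 3 to 14 counts and Oas1e 0 to 5 in any sample.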
